A study of Mus musculus with 8 samples.

Results

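The comparison was between mouse MLL-AF9 leukaemia stem cells carrying the Itgb3-17 short hairpin RNA, which is directed at the integrin gene Itgb3, and the same kind of cell carrying a control hairpin called Luc. It comprised 6 of the 8 arrays of the series, 3 for each hairpin, chosen by their titles. The members were the 12099 of 45281 probes that had a detection p under 0.05, that is, were above background, on at least 2 of these 6 arrays. They stood for 7522 gene symbols, of which each was represented by its tested probe of highest mean. The other 2 arrays carried a further hairpin against the same gene, Itgb3-20, which is set beside Itgb3-17 below. They also entered the shared normalization, the choice of brightest probe and the estimate of spread behind every p-value. The 6 arrays alone gave 1169 rises and 955 falls, more than the counts given below. Cells of every group were primary leukaemia cells of the C57BL/6 Actin-dsRed strain driven by the MLL-AF9 oncogene. They were sorted from bone marrow after serial transplantation, in the quaternary host, as cells with low Hoechst stain, dsRed, high c-kit, CD34 and high FcyRII. The labels give neither the vector, nor the time after its delivery, nor which arrays, if any, share a mouse, so p-values measure only the spread between these arrays, which may be technical.

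Itgb3 encodes the integrin beta-3 chain, which pairs with the alpha-v chain (Itgav) on many cells and with alpha-IIb (Itga2b) on megakaryocytes and platelets. Ligand binding by these receptors activates Src-family kinases and the tyrosine kinase Syk, and through adaptor proteins it acts on the actin cytoskeleton and on cell survival. MLL-AF9 is a fusion oncoprotein that keeps a stem cell programme, with Hoxa and Meis1 genes, switched on in myeloid progenitors, which then fail to mature.

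Between 20.5% and 26.2% of probes were above background on each of the 8 arrays, 9262 to 10347 on the control arrays and 10047 to 11856 on the Itgb3-17 arrays. In a principal component analysis of the 6 arrays the arrays were separated by hairpin along the first component (54.5% of the variance): the controls stood at -26.0, -23.2 and -14.5, the Itgb3-17 arrays at 21.9, 24.4 and 17.3. The single Itgb3 probe was not above background on any of the 8 arrays, with log2 signals of 4.28, 4.31 and 4.24 in the controls and 4.26, 4.20 and 4.38 with Itgb3-17. Its difference was 0.000669 ± 0.0652 (SE; limma, unadjusted p = 0.992), so these arrays could check neither the knockdown nor the labels of the knockdown arrays. Of the sort gate genes, Cd34 was not above background on any of the 6 arrays, and neither was Syk.

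Kit, the receptor behind the c-kit gate, read 6.95, 7.27 and 6.88 in the controls and 6.51, 6.60 and 6.74 with Itgb3-17, and Fcgr3, an Fc receptor, read 6.12, 6.51 and 6.64 against 6.42, 6.16 and 6.16. Neither passed the test (adjusted p = 0.12 for Kit). Fcgr2b, the inhibitory Fc receptor of the same family, read 7.0, 7.11 and 6.99 against 7.78, 7.60 and 7.47 and rose by 0.58 ± 0.152 (adjusted p = 0.0196). Its groups did not overlap, but its adjusted p was 0.0562 without control replicate 1, 0.0987 without Itgb3-17 replicate 1 and 0.0659 without Itgb3-17 replicate 2. The other tested Fcgr2b probes differed by 0.18 and 0.36 (adjusted p = 0.59 and 0.15). Fewer cells of a type and less RNA per cell cannot be told apart in such pooled RNA.

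Marker genes of other blood cells were mostly at background. So was Ptprc, a gene of leucocytes in general, with none of its probes above background on any array. A marker at background therefore does not show that its cells were absent. The sum of the normalized linear signals over all probes of a list ran from 2507 to 3011 in the controls and 2386 to 2461 with Itgb3-17 for 29 erythroid genes (6 tested, with Klf1, Gata1 and Epor not among them), 554.6 to 563.7 and 531.7 to 544.2 for 20 megakaryocyte genes (4 tested, not Pf4, Ppbp or Itga2b), and 644.4 to 659.6 and 621.2 to 623.3 for 24 B cell genes (1 tested, not Cd79a or Pax5). For 36 T and NK cell genes it ran from 2688 to 3018 and from 2919 to 2984 (9 tested, not Cd3d, Cd3g, Cd4 or Ncr1). For 27 mast cell, basophil and eosinophil genes it ran from 1333 to 1393 and from 1164 to 1266 (10 tested, not Fcer1a or Siglecf), for 26 dendritic cell genes from 2110 to 2183 and from 1915 to 1966 (8 tested), and for 30 stromal genes from 1401 to 1437 and from 1454 to 1480 (5 tested, not Col1a1, Cdh5 or Kdr). The erythroid, megakaryocyte, B cell, mast cell and dendritic sums were thus all lower, and the stromal sum higher, on every Itgb3-17 array than on every control array, and the part of such cells in the results below was not tested. Each sum also holds the background signal of untested probes. Medians of the tested genes had the sign of the sum for erythroid (-0.121), megakaryocyte (-0.136), mast cell (-0.187), dendritic (-0.111) and stromal (0.311) genes. The tested genes are part of each sum, so a shared sign is partly built in. The 1 tested B cell gene differed by 0.128, opposite to its sum. In the megakaryocyte, B cell and stromal lists 0 tested genes were called.

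Itgb3-17 arrays differed from the controls in 1737 of the 12099 tested probes (14.4%; limma, Benjamini-Hochberg adjusted p under 0.05), 973 of them higher (8.04%) and 764 lower (6.31%). Counted by gene symbol, 627 genes rose (8.34%) and 526 fell (6.99%). Differences were modest: the median size among the called probes was 0.706 on the log2 scale against 0.236 among all tested probes, and 108 probes rose and 108 fell by at least 2-fold. The 3 values of each group lay wholly apart in 1723 of the 1737 called probes, and in 35.0% of all tested probes. Most calls came from well measured genes, 1393 of them among the 6578 probes above background on all 6 arrays and 11 among the 2351 probes above background on only 2. In 81 of the rises no control array was above background, and in 33 of the falls no Itgb3-17 array was. The counts dropped whichever of the 6 arrays was left out, and each such fit has fewer arrays. There were 429 rises and 337 falls without Itgb3-17 replicate 2, 446 and 387 without replicate 1, and 687 and 566 without replicate 3. There were 578 and 490 without control replicate 2, 636 and 520 without control replicate 1, and 863 and 745 without control replicate 3.

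How the arrays were scaled to each other decided the share of rises among the calls. Quantile normalization placed the median difference of the tested probes at 0.0163, with 56.0% of the called probes higher. When each array was instead scaled to a common median over all probes, most of which are at background, the median of the tested probes moved to 0.240, and 1714 probes were called higher and 38 lower (97.8% higher). Scaling to a common median over the tested probes alone, an alternative added after the data were seen, placed it at -0.0875, with 1070 higher and 997 lower (51.8% higher). Of the 171 called genes chosen for description, 81 had risen and 90 had fallen. All 81 rises but only 16 of the 90 falls were still called with scaling over all probes, and 77 rises and 82 falls with scaling over the tested probes. The 16 falls were Adss, Atp2a2, Cyp51, Eef1b2, Hipk2, Kif1b, Morf4l2, Nxt2, Rac1, Rpl30, Samsn1, Serp1, Tex2, Timm17a, Tmem38b and Vkorc1. Of the calls described below, those of Aars, Adss, Camp, Cbx5, Cdc42, Dtymk, Eef2, Erg28, Erich5, Gaa, Gpnmb, Hoxa5, Impdh1, Itgb7, Lipa, Pfn1, Pld4, Rac2 and Taf1d were lost with no filter on dim probes. Of the 90 falls, those outside the 16 were not called with scaling over all probes. Every fall, those of the 16 among them, is relative to the scaling used.

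**Figure D1:**
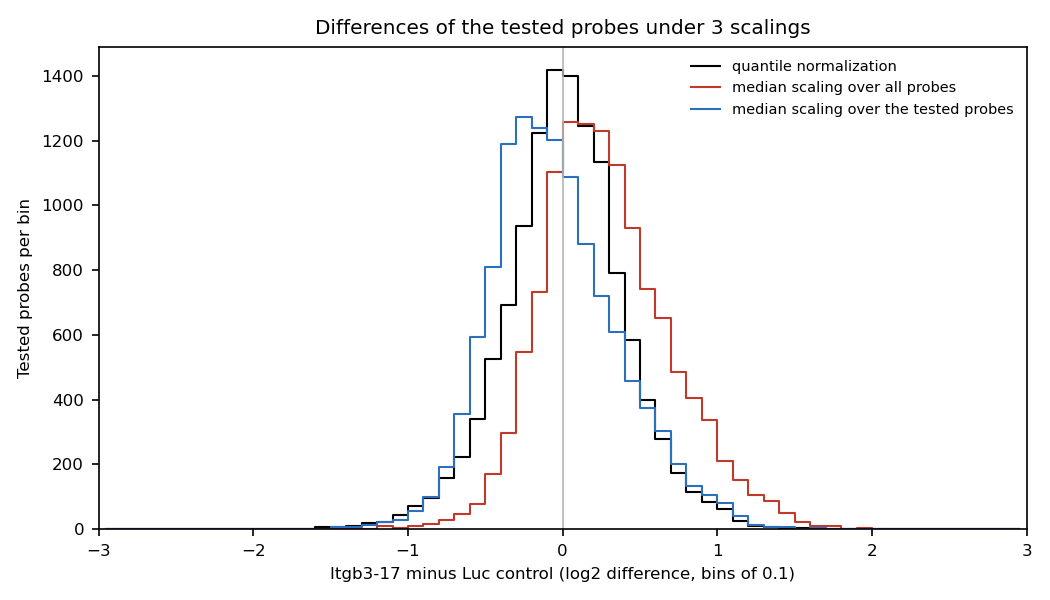
Number of tested probes (vertical axis) per bin of 0.1 in the log2 difference between Itgb3-17 and Luc control arrays (horizontal axis), under 3 ways of scaling the 8 arrays. The curve for median scaling over all probes lies to the right of the others, with a median of 0.240 against 0.0163 for quantile normalization and -0.0875 for scaling over the tested probes.

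The largest fall with a stable call was in Timm17a, a core subunit of the translocase that imports proteins across the inner mitochondrial membrane. Its normalized log2 signal was 9.15, 9.04 and 8.89 in the controls and 7.41, 7.13 and 7.67 with Itgb3-17 and fell by 1.63 ± 0.185 or 3.09-fold (SE; adjusted p = 0.000344). Samsn1, an adaptor protein of haematopoietic cells that dampens signalling from immune receptors, was as clearly separated, at 9.30, 9.45 and 9.38 against 7.69, 7.85 and 7.96 and fell by 1.54 ± 0.151 (adjusted p = 0.000235). Hipk2, a kinase that phosphorylates p53 after DNA damage, read 8.48, 8.35 and 8.13 against 6.66, 6.81 and 6.91 and fell by 1.52 ± 0.16 (adjusted p = 0.000252). In all 3 genes the lowest control array exceeded the highest Itgb3-17 array by more than the span of either group. The other tested Hipk2 probes, above background on all 6 arrays, differed by -0.25 and -0.31 (adjusted p = 0.2955 and 0.1748). Kif1b, a kinesin motor that carries mitochondria and vesicles, fell by 1.56 ± 0.195, and Vkorc1, the enzyme that recycles vitamin K, fell by 1.57 ± 0.221 with its Itgb3-17 arrays spread from 6.27 to 7.09. The other tested Vkorc1 probes differed by -0.10 and 0.01 (adjusted p = 0.786 and 0.98). Morf4l2, a subunit of histone acetyltransferase complexes, fell from 10.04, 9.94 and 10.17 to 8.60, 8.77 and 8.55, and Nxt2, an mRNA export factor, fell from 7.53, 7.28 and 7.49 to 6.34, 5.78 and 5.87. Their falls were by 1.41 and 1.44. Tmem38b, a potassium channel of the endoplasmic reticulum that balances calcium release, fell by 1.46, Tex2, a lipid transfer protein of the same organelle, by 1.41, and App, the amyloid precursor protein, by 1.37. Eef2, which drives translocation of the ribosome, read 9.10, 8.44 and 8.81 against 7.33, 7.33 and 6.91 and fell by 1.59 ± 0.375 (adjusted p = 0.0117), but its adjusted p was 0.052 without control replicate 1, 0.143 with trended, robust moderation and 0.177 with no filter on dim probes.

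Among the rises, Srr, the enzyme that converts L-serine to D-serine, read 6.80, 6.71 and 7.07 in the controls and 8.40, 8.49 and 8.14 with Itgb3-17, a rise by 1.48 ± 0.179 or 2.80-fold (adjusted p = 0.000513). Erich5, a gene named for a glutamate-rich region of its protein, showed the largest rise among genes taken by their brightest tested probe, by 1.60 ± 0.283, with 5.73, 6.61 and 6.56 against 7.98, 8.23 and 7.50 (adjusted p = 0.00267, and 0.0607 with no filter on dim probes). Mgmt, the DNA repair enzyme that removes alkyl groups from guanine, read 4.60, 4.76 and 4.84, close to background, against 6.06, 6.22 and 6.08. It rose by 1.39 ± 0.149 (adjusted p = 0.000252). The signal of a dim probe is compressed by the offset of 16 added before the logarithm, so its difference is understated. Sfxn1, a serine carrier of the inner mitochondrial membrane, was brighter, at 8.90, 9.09 and 9.24 against 10.45, 10.22 and 10.15, and rose by 1.20 ± 0.164. Lias, which makes the lipoic acid cofactor of mitochondrial dehydrogenases, rose by 1.23 ± 0.197. Iqgap1, a scaffold protein that binds Cdc42, Rac1 and actin, read 6.61, 6.94 and 7.09 against 8.21, 8.22 and 8.07 and rose by 1.28 ± 0.2 (adjusted p = 0.00164). Kansl2, a subunit of a histone acetyltransferase complex, rose by 1.19 ± 0.195, as did Lilr4b, an inhibitory receptor of myeloid cells, by 1.19 ± 0.202, the latter above background on 1 of 3 control arrays and on all 3 Itgb3-17 arrays. The groups of these rising genes did not overlap.

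**Figure D2:**
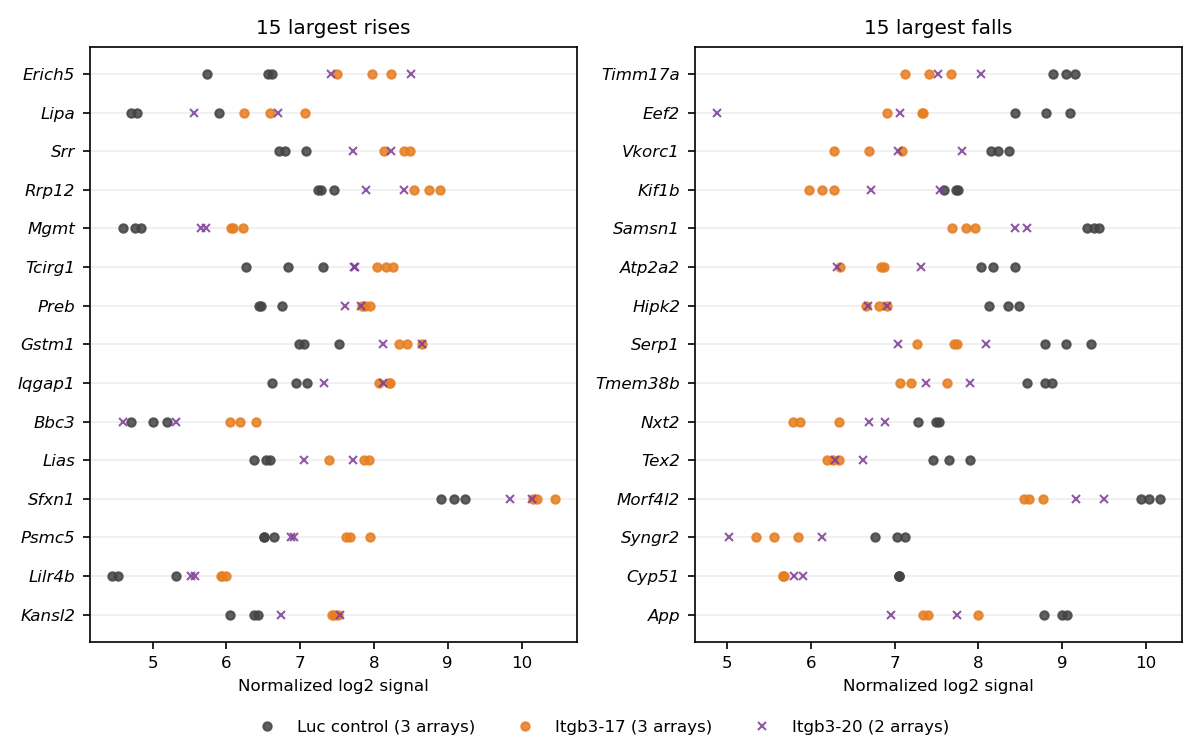
Normalized log2 signal (horizontal axis) of the 15 genes with the largest rises (left) and the 15 with the largest falls (right) among called genes whose Itgb3-17 and control arrays do not overlap, each gene taken by its brightest tested probe; each point is 1 array, and crosses are the 2 Itgb3-20 arrays. For Bbc3 the Itgb3-20 arrays lie near the controls, and for Hipk2 they lie among the Itgb3-17 arrays.

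Gene lists drawn up for this cell type were described by how many tested genes were called and by their median difference, beside 8.34% higher, 6.99% lower and a median of 0.0127 over all 7522 tested genes. The members and lists were chosen with earlier results of these data known, so their counts are descriptions. In most lists rises and falls were mixed and the median lay close to that of all genes. Proteasome subunits had the highest median among the lists with at least 10 tested genes, and purine and cholesterol synthesis genes the lowest. When 1 array was left out the counts of most lists dropped with the total, and their ranges are given in the form "without 1 array".

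**Figure D3:**
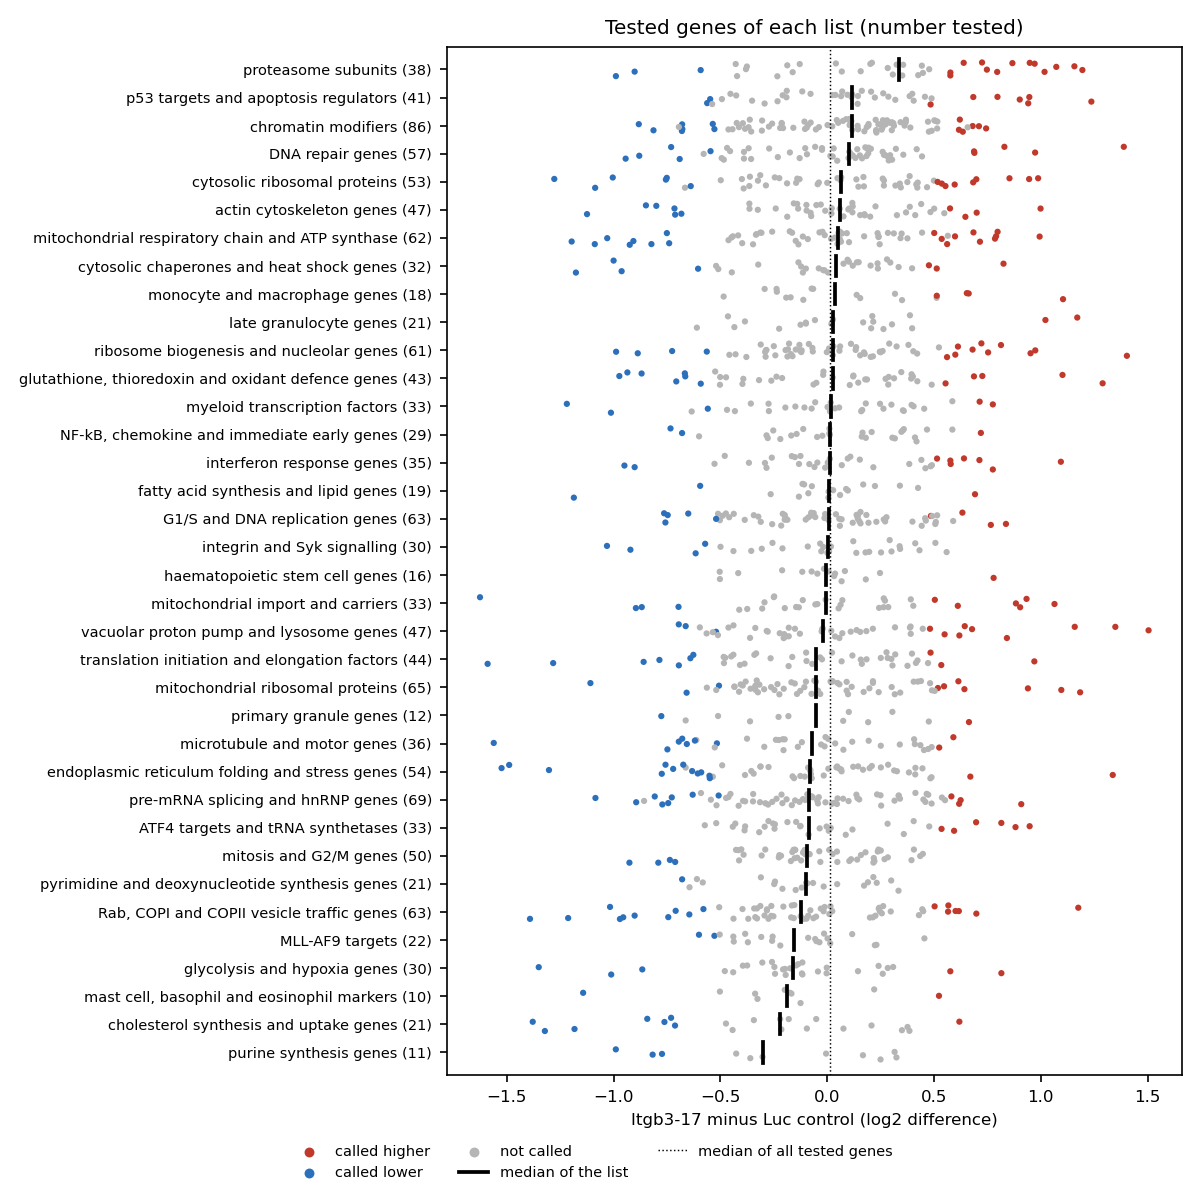
Log2 difference between Itgb3-17 and Luc control (horizontal axis) of every tested gene (points) of the gene lists with at least 10 tested genes, ordered by list median (black bar); the dotted line is the median of all tested genes. The proteasome median of 0.338 stands at the top and the purine synthesis median of -0.303 at the bottom, and coloured points are called genes.

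The proteasome is the barrel-shaped protease that degrades ubiquitin-tagged proteins. Its core particle, called 20S, stacks alpha rings and catalytic beta rings, and a 19S cap with a ring of ATPases unfolds the substrate. Of 38 tested proteasome genes 13 rose and 3 fell, with a median difference of 0.338. Without 1 array 9 to 13 rose and 1 to 3 fell, with medians of 0.295 to 0.367 and the fewest falls without Itgb3-17 replicate 1 or 2. The median stood 0.479 above that of all genes with scaling over all probes, where 19 rose and 0 fell, and was 0.411 with scaling over the tested probes. The promoter of Psmb6 is shown because this catalytic subunit rose and its promoter, a window of 300 bases around the start, holds, in capitals, the core of the antioxidant response element, a site for the transcription factors Nrf1 and Nrf2 that act on proteasome genes. It lies at chr11:70525107-70525406 on the plus strand (RefSeq, GRCm38.p6).
Psmb6: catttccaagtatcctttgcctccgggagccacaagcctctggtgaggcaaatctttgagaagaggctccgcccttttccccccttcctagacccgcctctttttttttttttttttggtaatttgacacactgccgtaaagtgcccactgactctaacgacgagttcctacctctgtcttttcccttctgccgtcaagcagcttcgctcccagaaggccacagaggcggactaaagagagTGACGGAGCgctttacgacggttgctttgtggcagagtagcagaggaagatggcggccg
The core was searched as TGACNNNGC on both strands. It occurred in the promoters of 1 of the 11 rising proteasome genes found in the table, in 4 of the 32 tested ones found there (12.5%) and in 14% of 27025 genes, so the proteasome share was close to that of all genes.

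Psmb6 itself read 7.48, 7.54 and 7.93 in the controls and 8.78, 8.68 and 8.70 with Itgb3-17, a rise by 1.07 ± 0.165 or 2.10-fold (adjusted p = 0.00162). The 19S ATPases moved most. Psmc5 read 6.51, 6.64 and 6.51 against 7.68, 7.62 and 7.95 and rose by 1.19 ± 0.153 (adjusted p = 0.000691), Psmc3 read 6.96, 6.49 and 6.85 against 7.95, 7.95 and 7.87 and rose by 1.16 ± 0.16, and Psmc2 read 9.57, 9.61 and 9.76 against 10.71, 10.58 and 10.55 and rose by 0.97 ± 0.148. These 3 ATPases form part of 1 ring, and in each of them every Itgb3-17 array was above every control array. Psmc4, an ATPase of the same ring, went the other way, from 8.74, 8.96 and 9.0 to 7.79, 7.90 and 8.04 and fell by 0.99 ± 0.165 (adjusted p = 0.00213). It and the other proteasome genes beyond the 5 of lowest p were chosen for description after their values were seen. Its fall was not called with scaling over all probes. The cap subunits Psmd13 and Psmd4, the latter a ubiquitin receptor, rose by 1.02 and 0.80. In the core, the alpha subunit Psma5 rose by 0.72 and the beta subunit Psmb3 by 0.95, and Psme1, a subunit of the interferon-inducible PA28 activator, by 0.87. Psmb8, an immunoproteasome catalytic subunit, fell by 0.90, a call lost without control replicate 1 or 3 and without Itgb3-17 replicate 1 or 2, and Psmb10, another, rose by 0.58, a call lost without control replicate 1 or 2 and without Itgb3-17 replicate 1 or 2.

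By class, the median difference was 0.971 for 5 ATPases (3 rose, 1 fell), 0.473 for 4 alpha ring genes (2 rose) and 0.426 for 7 beta ring genes (3 rose). It was 0.0405 for 11 other cap genes (3 rose), 0.0682 for 5 immunoproteasome and PA28 genes (2 rose, 1 fell) and 0.22 for 6 assembly factors and other genes (0 rose, 1 fell). Medians of the same classes with the other hairpin, against the same controls, were 0.0897 for the ATPases, -0.118 for the alpha ring, 0.129 for the beta ring and -0.23 for the other cap genes, and 0.4 for the immunoproteasome and PA28 genes.

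**Figure D4:**
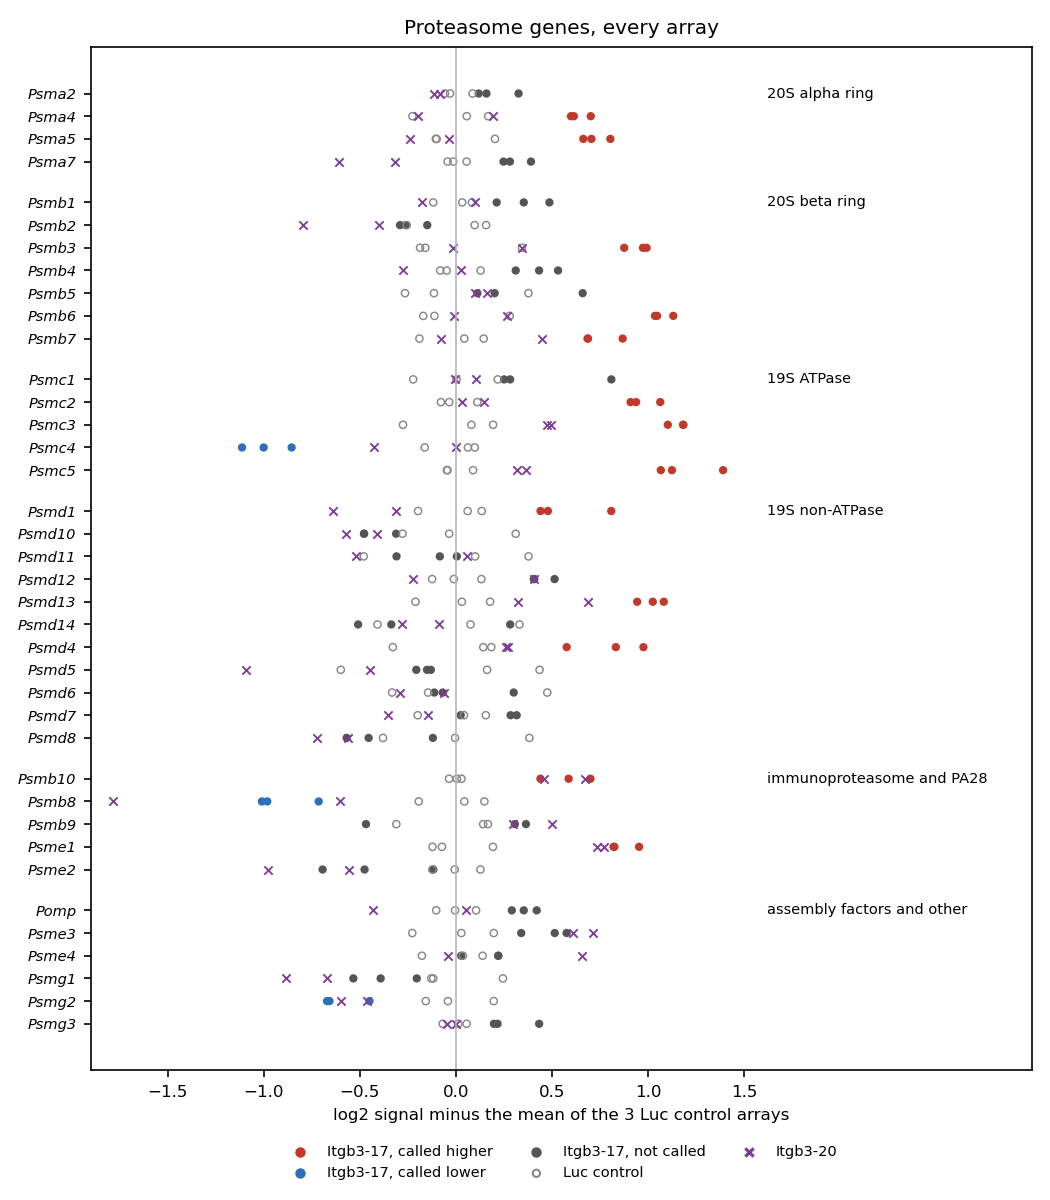
Every tested proteasome gene by class, with each array's log2 signal minus the mean of the 3 Luc control arrays (horizontal axis); open circles are controls, filled circles Itgb3-17 arrays coloured by call, and crosses Itgb3-20 arrays. The Itgb3-17 arrays lie to the right for 3 of 5 ATPases and to the left for Psmc4, while most Itgb3-20 arrays lie nearer to the controls.

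Cholesterol is built from acetyl-CoA through mevalonate, squalene and lanosterol, and the transcription factor SREBP-2 switches on the genes of this pathway together when sterols are scarce. Of 21 tested genes of cholesterol synthesis and uptake 7 fell and 1 rose, with a median of -0.221. Without 1 array 5 to 7 fell and 0 or 1 rose, with medians of -0.333 to -0.233. With scaling over all probes the median was 0.0228, and its difference from the median of all genes was -0.236, but only Cyp51 was called lower. Promoters of Cyp51 (chr5:4104648-4104947) and Mvd (chr8:122443373-122443672), both on the minus strand and from RefSeq GRCm38.p6, are shown because both genes fell and both hold in capitals the CCAAT box, the binding site of the factor NF-Y that works with SREBP-2 at many sterol genes (ATTGG is the same box on the opposite strand).
Cyp51: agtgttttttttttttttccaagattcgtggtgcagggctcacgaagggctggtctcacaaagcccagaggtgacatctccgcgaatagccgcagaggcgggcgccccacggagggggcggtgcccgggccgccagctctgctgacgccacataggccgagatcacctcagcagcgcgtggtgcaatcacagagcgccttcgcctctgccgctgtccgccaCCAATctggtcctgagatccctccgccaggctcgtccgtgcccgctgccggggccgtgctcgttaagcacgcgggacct
Mvd: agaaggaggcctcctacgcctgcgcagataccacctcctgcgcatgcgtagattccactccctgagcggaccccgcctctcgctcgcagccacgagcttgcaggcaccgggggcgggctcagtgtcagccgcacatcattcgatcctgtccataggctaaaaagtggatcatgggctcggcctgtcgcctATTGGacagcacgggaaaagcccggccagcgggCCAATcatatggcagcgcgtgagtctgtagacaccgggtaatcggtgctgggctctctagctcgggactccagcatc
On either strand the box occurred in 4 of the 5 falling cholesterol genes found in the table, in 15 of the 17 tested ones found there (88.2%) and in 41.1% of all 27025 genes. The sterol response element, searched as TCACNCCAC on both strands, occurred in 0 of the 17 and in 1.44% of all genes, which says only that these letters are not in these windows.

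Cyp51, the lanosterol demethylase, read 7.05 on each of the 3 control arrays and 5.68, 5.67 and 5.66 with Itgb3-17 and fell by 1.38 ± 0.143 or 2.60-fold (adjusted p = 0.000252). No other gene described here had so little spread within both groups. Sqle, which oxidizes squalene and is a rate-limiting step, read 8.04, 8.47 and 7.95 against 6.81, 6.83 and 7.26 and fell by 1.18 ± 0.204 (adjusted p = 0.00241). Mvd, which makes isopentenyl diphosphate, read 7.67, 7.78 and 7.59 against 6.91, 7.0 and 6.94 and fell by 0.73 ± 0.146. In each of these the groups were apart. Nsdhl, which works on the sterol ring after Cyp51, fell by 0.84, and Erg28, a scaffold of the sterol enzymes, by 1.32 (adjusted p = 0.00326, and 0.0548 with no filter on dim probes). The fall of Erg28 was on 1 of its 3 tested probes, and the others, above background on all 6 arrays, differed by 0.13 and 0.06 (adjusted p = 0.674 and 0.861). Hsd17b7, chosen after its value was seen as were the genes that follow, fell by 0.71, a call lost without Itgb3-17 replicate 2. The regulators did not pass the test: Srebf2, which encodes SREBP-2, differed by -0.44, Insig1, which holds it in the endoplasmic reticulum, by -0.47, and Scap, its escort, by 0.39.

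Purine nucleotides are made from ribose phosphate or salvaged from free bases. Of 11 tested purine genes 3 fell and 0 rose, with a median of -0.303. Hprt, the salvage enzyme for hypoxanthine and guanine, read 10.91, 10.97 and 10.80 in the controls and 10.07, 9.94 and 10.21 with Itgb3-17 and fell by 0.82 ± 0.156 (adjusted p = 0.00404). Adss, which starts the branch towards AMP, fell by 0.99 ± 0.207, with an adjusted p of 0.00648 and of 0.0642 with no filter on dim probes. Impdh1, which starts the branch towards GMP, read 5.31, 5.74 and 5.47 against 5.01, 4.40 and 4.78 and fell by 0.77, but its adjusted p was 0.0522 without control replicate 2 and 0.0681 without Itgb3-17 replicate 2. With scaling over all probes the purine median was 0.131, and its difference from the median of all genes was -0.127. Of 21 tested pyrimidine and deoxynucleotide genes 1 fell and 0 rose (median -0.0988), the fall being in the thymidylate kinase Dtymk, whose call was lost whichever of the 6 arrays was left out and whose other tested probes differed by 0.42 and -0.10.

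In the endoplasmic reticulum, where secreted and membrane proteins enter the secretory pathway, 12 of 54 tested folding and stress genes fell and 2 rose, with a median of -0.0794. The falls numbered 7 without Itgb3-17 replicate 1 and 6 without replicate 2, and 1 rose without either. With scaling over all probes the median was 0.00538 above that of all genes, with 8 higher and 2 lower, so the excess of falls was not kept. Serp1, a small membrane protein that protects newly made proteins under stress, read 9.35, 9.05 and 8.80 in the controls and 7.71, 7.27 and 7.75 with Itgb3-17 and fell by 1.49 ± 0.241 (adjusted p = 0.00188). Atp2a2, the pump that loads the organelle with calcium, read 8.17, 8.43 and 8.04 against 6.84, 6.35 and 6.88 and fell by 1.52 ± 0.233 (adjusted p = 0.00161). Its other tested probes differed by -0.05 and -0.40 (adjusted p = 0.884 and 0.143). Ostc, a subunit of the enzyme that attaches N-glycans, read 10.66, 10.79 and 10.45 against 9.39, 9.10 and 9.50 and fell by 1.30 ± 0.171. In all 3 genes the Itgb3-17 arrays lay below every control array. Sdf2l1, a partner of the chaperone BiP, fell by 0.77. Preb, which activates the vesicle coat GTPase Sar1, went the other way, from 6.44, 6.47 and 6.75 to 7.95, 7.84 and 7.88. Its rise was by 1.34 ± 0.155 (adjusted p = 0.000408), and its other tested probe differed by 0.41 (adjusted p = 0.107).

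Vesicle traffic genes were mixed: of 63 tested, 7 rose and 10 fell, with a median of -0.125, which was 0.0177 above all genes with scaling over all probes. Counts were 2 to 5 rises and 6 to 9 falls without 1 array, the fewest rises without Itgb3-17 replicate 1 or 2 and the fewest falls without control replicate 2 or Itgb3-17 replicate 2. Sar1b, the GTPase that starts COPII vesicles at the endoplasmic reticulum, read 8.89, 8.84 and 8.48 against 7.76, 7.66 and 7.74 and fell by 1.02 ± 0.159 (adjusted p = 0.0017). Tmed10, a cargo receptor of early secretory vesicles, fell by 1.21 ± 0.194 on 1 probe and differed by 0.21 on another (adjusted p = 0.402). Arf6, a GTPase of endocytic recycling that also acts on integrin traffic, fell by 0.97 ± 0.155, and Syngr2, a vesicle membrane protein, fell by 1.39 ± 0.238. Rin3, an exchange factor of the endocytic GTPase Rab5, rose from 5.38, 4.97 and 5.56 to 6.62, 6.50 and 6.31, by 1.18 ± 0.175 (adjusted p = 0.00143).

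Of 47 tested genes of the lysosome and its proton pump 9 rose and 3 fell (median -0.0208, and 0.135 above all genes with scaling over all probes), with 5 rises without control replicate 2, 4 without Itgb3-17 replicate 1 and 3 without replicate 2. Without either of those Itgb3-17 replicates 0 fell. Tcirg1, a membrane subunit of the proton pump, read 6.27, 6.84 and 7.31 against 8.26, 8.04 and 8.16 and rose by 1.35 ± 0.213 (adjusted p = 0.00171). Ctsz, a lysosomal protease, read 6.48, 5.98 and 6.30 against 7.38, 7.63 and 7.23 and rose by 1.16 ± 0.187 (adjusted p = 0.00188). Lipa, the lysosomal acid lipase, which frees cholesterol from its esters, rose by 1.50 ± 0.322 (adjusted p = 0.00737), but its controls spread over 4.78, 4.70 and 5.89 and its adjusted p was 0.0508 without Itgb3-17 replicate 2. Lamp1, a main protein of the lysosomal membrane, fell by 0.66, a call lost without Itgb3-17 replicate 1 or 2.

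The transcription factor p53 arrests the cycle through Cdkn1a and promotes cell death through Bbc3, which encodes Puma. Of 41 tested p53 targets and apoptosis regulators 7 rose and 2 fell, with a median of 0.117; 4 rose without Itgb3-17 replicate 2, 0 fell without control replicate 3 or each Itgb3-17 array in turn, and with scaling over the tested probes the median was -0.0078. Bbc3 read 4.71, 5.20 and 5.01 in the controls and 6.40, 6.18 and 6.05 with Itgb3-17. Its rise was by 1.24 ± 0.198 or 2.36-fold (adjusted p = 0.00183), while another probe, near background, differed by 0.04 (adjusted p = 0.89). Cdkn1a, the cyclin-dependent kinase inhibitor p21, read 7.12, 7.08 and 6.96 against 8.03, 8.04 and 7.81 and rose by 0.90 ± 0.159 (adjusted p = 0.00267), while its other tested probes differed by 0.43 and -0.03 (adjusted p = 0.106 and 0.947). Bad, which like Puma blocks survival proteins of the Bcl-2 family, read 5.90, 5.61 and 5.41 against 6.60, 6.74 and 6.40 and rose by 0.94 ± 0.167. The groups were apart in these 3 genes. Mcl1, a survival protein of the same family, also rose, from 5.19, 5.11 and 5.56 to 6.16, 6.30 and 6.26, by 0.95 ± 0.173 (adjusted p = 0.00328), so genes for and against cell death were both among the rises. Casp2, a caspase activated by the PIDDosome, rose by 0.68 (adjusted p = 0.0103, and 0.0623 without Itgb3-17 replicate 2).

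Oxidant defence genes split, with 5 rises and 7 falls among 43 tested (median 0.0255). Rises were 3 without control replicate 1 or Itgb3-17 replicate 1, and falls were 4 without Itgb3-17 replicate 1 and 1 without replicate 2. Sod1, the cytosolic superoxide dismutase, read 7.34, 7.64 and 7.51 against 8.55, 8.60 and 8.65 and rose by 1.10 ± 0.15 (adjusted p = 0.000863). Gstm1, a glutathione transferase, read 6.99, 7.06 and 7.53 against 8.34, 8.44 and 8.66 and rose by 1.29 ± 0.191 (adjusted p = 0.00143), and Glrx, a glutaredoxin, rose by 0.73 ± 0.144. Gstp1, another glutathione transferase, went the other way, from 9.37, 9.33 and 8.88 to 8.21, 8.39 and 8.38 and fell by 0.87 ± 0.167 (adjusted p = 0.00418).

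Atf4 is the transcription factor of the integrated stress response and acts on amino acid transport and on the enzymes that charge tRNAs. Of 33 tested genes of that list 6 rose and 0 fell, yet the median was -0.0873, of opposite sign to the calls (0.0928 above all genes with scaling over all probes). Only 2 were called without control replicate 2 or without Itgb3-17 replicate 1 or 2. Atf4 itself read 7.61, 7.33 and 7.34 in the controls and 8.46, 8.46 and 8.01 with Itgb3-17, a rise by 0.88 ± 0.17 (adjusted p = 0.00426). Another Atf4 probe, also above background on all 6 arrays, differed by -0.27 (adjusted p = 0.563). Mars1, the methionyl-tRNA synthetase, read 5.47, 5.73 and 4.98 against 6.37, 6.55 and 6.10 and rose by 0.95 ± 0.194 (adjusted p = 0.00589), while its other tested probe differed by -0.24 (adjusted p = 0.359). The groups of both genes were apart on the probes that rose. Aars, the alanyl-tRNA synthetase, rose by 0.82, a call lost without control replicate 1 or 2 (adjusted p = 0.0701 and 0.0627) and without Itgb3-17 replicate 1 or 2 (0.0873 and 0.0679).

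Ribosome biogenesis takes place in the nucleolus, where ribosomal RNA is made and packed. Of 61 tested genes of this list 10 rose and 4 fell, with a median of 0.0263 (0.105 above all genes with scaling over all probes). There were 6 rises without control replicate 1, 1 fall without control replicate 2 and 2 falls without Itgb3-17 replicate 2. Rrp12, which acts in the maturation and export of both ribosomal subunits, read 7.46, 7.24 and 7.28 against 8.89, 8.75 and 8.54 and rose by 1.40 ± 0.173 or 2.64-fold (adjusted p = 0.000557). Nol6, a component of the machinery for the small subunit, read 7.63, 7.47 and 7.28 against 8.36, 8.59 and 8.36 and rose by 0.97 ± 0.173, and Ppan, which acts on the large subunit, rose by 0.95 ± 0.165. Mybbp1a, a nucleolar protein that binds the ribosomal DNA, rose by 0.72 ± 0.145. Taf1d, a subunit of the initiation factor of RNA polymerase I, fell by 0.99 (adjusted p = 0.00572, and 0.0539 with no filter on dim probes), and another, dimmer probe of it differed by 0.08.

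Cytosolic ribosomal proteins had 9 rises and 6 falls among 53 tested genes, with a median of 0.0656, which was 0.318 above all genes with scaling over all probes (21 higher, 1 lower). Rises were 4 without Itgb3-17 replicate 1 and 3 without replicate 2, and falls were 3 without replicate 2. Rpl30 read 9.61, 9.77 and 9.43 against 8.22, 8.38 and 8.37 and fell by 1.28 ± 0.171 (adjusted p = 0.000848), and Rpl22, which also binds RNAs outside the ribosome, fell by 1.09 ± 0.159. Rpl26, which binds the p53 mRNA, read 8.57, 8.54 and 8.74 against 9.52, 9.62 and 9.27 and rose by 0.85 ± 0.165 (adjusted p = 0.00432). Members of a family that is made in equal amounts for the ribosome thus differed in direction on these probes, and many have near-identical pseudogene copies that a probe may not tell apart. Of 44 translation factors 3 rose and 7 fell (median -0.0518, and 0.0778 above all genes with scaling over all probes), with 4 falls without control replicate 2 or Itgb3-17 replicate 1 or 2, and 1 rise without control replicate 2 or each Itgb3-17 array in turn. Eef1b2, an exchange factor of the elongation factor that delivers tRNAs, read 10.04, 10.07 and 10.01 against 8.64, 8.66 and 8.96 and fell by 1.28 ± 0.159 (adjusted p = 0.000557). Other tested Eef1b2 probes, above background on all 6 arrays, differed by -0.06 and -0.27 (adjusted p = 0.881 and 0.382). Eef1g, of the same complex, fell by 0.86, and Eif4ebp1, the repressor of cap-dependent initiation that mTOR inactivates, by 0.79. Eif2b4, a subunit of the exchange factor that the integrated stress response blocks, rose from 7.30, 7.25 and 7.45 to 8.34, 8.16 and 8.40, by 0.97 ± 0.15 (adjusted p = 0.00164).

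Mitochondrial genes moved both ways. Of 62 tested genes of the respiratory chain and ATP synthase 10 rose and 8 fell (median 0.0505), with 6 rises without control replicate 2 and 4 without Itgb3-17 replicate 1 or 2. Ndufb10, of complex I, read 5.05, 5.10 and 5.0 against 6.11, 6.14 and 5.89 and rose by 0.99 ± 0.156 (adjusted p = 0.00171). Atp5pb, of the ATP synthase stalk, read 7.86, 8.13 and 7.93 against 6.90, 6.84 and 6.91 and fell by 1.09 ± 0.148 (adjusted p = 0.000863), but its other tested probes differed by 0.17 and 0.08 (adjusted p = 0.567 and 0.818). Uqcrc2, of complex III, fell by 0.91 and Cox7a2l, which joins complexes III and IV, by 1.03. Of 33 import and carrier genes 6 rose (3 without Itgb3-17 replicate 2) and 4 fell, including, beside Timm17a, rises of 1.06 in Timm8a1, an intermembrane space chaperone, and of 0.88 in Tomm22, the receptor of the outer membrane translocase. Of 65 mitochondrial ribosomal proteins 7 rose and 3 fell (median -0.053), with 4 rises without control replicate 2 or 3 or Itgb3-17 replicate 1 or 2. Mrpl27 read 5.38, 5.46 and 5.71 against 6.57, 6.76 and 6.77 and rose by 1.18 ± 0.159, Mrpl54 rose by 1.10 and Mrpl11 fell by 1.11. In fatty acid metabolism, with 1 rise and 2 falls among 19 tested genes, Etfa, which passes electrons from fatty acid oxidation to the respiratory chain, read 10.61, 10.71 and 10.31 against 9.38, 9.21 and 9.49 and fell by 1.19 ± 0.161 (adjusted p = 0.000863), while Acadvl, the dehydrogenase of very long chain fatty acids, rose by 0.69. Other tested Etfa probes differed by -0.12 and -0.21 (adjusted p = 0.77 and 0.53). Only 1 gene of that list fell without each Itgb3-17 array in turn. Of 30 glycolysis and hypoxia genes 2 rose and 3 fell (median -0.16, and -0.0692 relative to all genes with scaling over all probes). Of these, 1 fell without control replicate 1 or 2 or Itgb3-17 replicate 1 or 2, and 1 rose without each control array in turn or Itgb3-17 replicate 1 or 2. Pdha1 and Pdhb, the chains of the E1 enzyme of pyruvate dehydrogenase, differed in direction: Pdha1 read 8.06, 7.99 and 8.12 against 6.34, 6.61 and 7.17 and fell by 1.35 ± 0.239, and Pdhb, near background, read 4.72, 4.50 and 4.87 against 5.52, 5.66 and 5.36 and rose by 0.82 ± 0.173 on 1 probe and differed by -0.46 on another (adjusted p = 0.161).

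Of 21 late granulocyte genes 2 rose and 0 fell, of 18 genes of monocytes and macrophages 4 rose and 0 fell, and of 12 primary granule genes 1 rose and 1 fell, with medians of 0.027, 0.036 and -0.0536. Of the late granulocyte genes 1 fell without control replicate 1 or 3. Lyz1, a lysozyme gene listed with the monocyte and macrophage genes, read 7.89, 8.03 and 7.92 in the controls and 9.25, 9.09 and 8.80 with Itgb3-17, a rise by 1.10 ± 0.16 or 2.15-fold (adjusted p = 0.00141). Ltf, the lactoferrin of secondary granules, read 4.41, 4.43 and 4.39, above background on 0 of 3 control arrays, against 5.46, 5.78 and 5.51, and was at least 1.87-fold higher with Itgb3-17 (adjusted p = 0.00154), the bound being set by the lowest signal above background on each control array. Camp, the cathelicidin of the same granules, rose by 1.02, but its adjusted p was 0.0578 without control replicate 2, 0.0571 without Itgb3-17 replicate 2 and 0.0502 without replicate 3. Mpo, the myeloperoxidase of primary granules, read 9.95, 10.05 and 10.45 against 10.86, 10.76 and 10.82 and rose by 0.66 ± 0.163 (adjusted p = 0.0142), with 0.0585 and 0.0565 without control replicates 1 and 2 and 0.0569 and 0.0501 without Itgb3-17 replicates 1 and 2. Other tested Mpo probes rose by 1.17 and 0.83 (adjusted p = 0.000691 and 0.00358), and a further one differed by -0.04 (adjusted p = 0.904). Serpinb1a, an inhibitor of granule proteases, fell from 9.52, 9.61 and 9.48 to 8.63, 8.78 and 8.87, by 0.78 ± 0.154. The other 3 called genes of the monocyte list, Pld4, Ncf4 and Gpnmb, rose by 0.65, 0.51 and 0.66. Of the 4 rises in that list only Lyz1 was called without control replicate 1 or 2 or Itgb3-17 replicate 2.

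Of 22 tested targets of MLL-AF9, genes of the leukaemia programme, 2 fell and 0 rose, with a median of -0.155 (-0.0755 relative to all genes with scaling over all probes). Hoxa5, a homeobox gene of that programme, read 8.11, 8.22 and 8.13 against 7.48, 7.44 and 7.74 and fell by 0.60 ± 0.182 (adjusted p = 0.0386), and Cbx5, which encodes the heterochromatin protein HP1 alpha, fell by 0.53 (adjusted p = 0.0399). Neither call held in most fits that left out 1 array: the adjusted p of Hoxa5 was 0.0774, 0.109 and 0.0752 without control replicates 1, 2 and 3 and 0.116 and 0.14 without Itgb3-17 replicates 1 and 2, and that of Cbx5 was above 0.05 whichever array was left out, at 0.0533 to 0.127. Lyl1, a helix-loop-helix factor of blood stem cells and the 1 called gene of 16 tested stem cell genes, read 7.48, 7.08 and 7.39 against 8.27, 8.10 and 7.91 and rose by 0.78 ± 0.173 (adjusted p = 0.00879). Of 33 myeloid transcription factors 2 rose and 3 fell, with 1 rise without control replicate 1 or Itgb3-17 replicate 2 or 3 and 1 fall without Itgb3-17 replicate 2. Ets1, a founding member of the Ets family of factors, read 7.63, 8.06 and 7.25 against 6.29, 6.51 and 6.47 and fell by 1.22 ± 0.197 (adjusted p = 0.00188), with its groups apart. Irf1, an interferon-induced factor, read 5.42, 5.55 and 6.08 against 6.51, 6.46 and 6.40 and rose by 0.78 ± 0.177 (adjusted p = 0.0101), and on another probe it differed by -0.10 (adjusted p = 0.718).

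Of the integrin genes themselves, 8 of 27 could be tested and 1 was called. Itgb7, the beta chain of integrins of mucosal homing, read 4.43, 5.17 and 5.12 against 5.92, 5.26 and 5.86 and rose by 0.78 (adjusted p = 0.0276), but 0.111 without control replicate 1, 0.12 without Itgb3-17 replicate 1 and 0.0983 without replicate 3. Downstream of integrins, 4 of 30 tested genes fell and 0 rose, with a median of 0.00469, and 1 fell without Itgb3-17 replicate 1 and 2 without replicate 2. Rac1, the GTPase that drives lamellipodia, read 6.06, 6.03 and 5.66 against 4.89, 4.81 and 4.96 and fell by 1.03 ± 0.175 or 2.04-fold (adjusted p = 0.00225) that was called in every alternative. Cdc42, the GTPase of filopodia, read 5.0, 5.47 and 5.80 against 4.39, 4.53 and 4.58, above background on 3 control arrays and 0 Itgb3-17 arrays, and was at least 1.74-fold lower (adjusted p = 0.0117, and 0.0569 without Itgb3-17 replicate 1). The falls of Rac2, the Rac of blood cells, by 0.62 and of Zyx, a focal adhesion protein, by 0.57 were lost without Itgb3-17 replicate 1 (adjusted p = 0.11 and 0.0908) or 2 (0.0907 and 0.051). The call was also lost without control replicate 2 for Rac2 (0.0928) and without control replicate 1 for Zyx (0.0669). None of the 3 was called lower with scaling over all probes.

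Of 47 actin cytoskeleton genes 4 rose and 6 fell (median 0.0586), and of 36 microtubule and motor genes 2 rose and 7 fell (median -0.0736). Actin rises were 2 without control replicate 2 or Itgb3-17 replicate 1 and 1 without replicate 2, actin falls 3 without either of those Itgb3-17 replicates, and microtubule falls 3 without control replicate 1 or Itgb3-17 replicate 1 and 2 without replicate 2. Microtubule rises were 1 without each control array in turn or Itgb3-17 replicate 1, and 0 without replicate 2 or 3. Arpc4, of the complex that nucleates branched actin, read 7.21, 7.19 and 7.68 against 8.51, 8.34 and 8.23 and rose by 1.00 ± 0.171 (adjusted p = 0.00238). Lcp1, the actin bundler of blood cells, read 7.52, 7.73 and 7.23 against 6.68, 6.70 and 6.55 and fell by 0.85 ± 0.168 (adjusted p = 0.00485). Pfn1, which feeds actin monomers to growing filaments, fell by 1.12 on 1 probe (adjusted p of 0.107 once dim probes were also tested) and differed by 0.13 on another (adjusted p = 0.605). Tubb5, a main beta-tubulin, fell from 12.72, 12.56 and 12.54 to 11.99, 11.82 and 11.97, by 0.68 ± 0.148.

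In the cell cycle, 63 tested genes of DNA replication gave 4 rises and 5 falls (median 0.00625), and 50 genes of mitosis gave 0 rises and 4 falls (median -0.0941, but 0.0427 above all genes with scaling over all probes). Replication rises were 2 without control replicate 2 or 3 or Itgb3-17 replicate 1 or 2, and falls 3 without Itgb3-17 replicate 1 or 2. Mitotic rises were 2 without control replicate 3. Mcm5, of the replicative helicase, read 9.24, 9.23 and 9.53 against 10.15, 10.29 and 10.07 and rose by 0.84 ± 0.155 (adjusted p = 0.00349). Gins1 and Gins2, which bind the same helicase, fell by 0.76 and 0.76. Other tested Gins2 probes differed by -0.01 and -0.23 (adjusted p = 0.97 and 0.49). Plk1, the kinase that drives entry into mitosis, read 7.98, 7.97 and 7.69 against 6.97, 7.02 and 6.87 and fell by 0.93 ± 0.173 (adjusted p = 0.00359). Birc5, or survivin, of the chromosomal passenger complex, fell by 0.74, Ckap2, which binds spindle microtubules, by 0.79, and Anln, of the cleavage furrow, by 0.71. These 4 mitotic genes all had groups that did not overlap, and none was called with scaling over all probes.

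DNA repair genes had 5 rises and 5 falls among 57 tested (median 0.103, and -0.000311 with scaling over the tested probes). Rises were 3 without control replicate 1 or 2 or Itgb3-17 replicate 1 and 2 without replicate 2, and falls 2 without control replicate 1 or Itgb3-17 replicate 1 and 3 without replicate 2. Beside Mgmt, Xrcc1, the scaffold of single-strand break repair, read 5.46, 5.38 and 5.72 against 6.48, 6.44 and 6.55 and rose by 0.97 ± 0.195 (adjusted p = 0.00519). Polh, a polymerase that copies past ultraviolet lesions, fell by 0.94 and Trp53bp1, which marks double-strand breaks, by 0.88. Of 86 chromatin modifiers 6 rose and 7 fell (median 0.115). Rises were 3 without control replicate 1, 1 without Itgb3-17 replicate 1 and 2 without replicate 2, and falls were 4 without control replicate 2 or 3 and 3 without Itgb3-17 replicate 1 or 2. Suz12, of the Polycomb complex that methylates histone H3, read 9.22, 9.32 and 9.45 against 8.47, 8.58 and 8.50 and fell by 0.81 ± 0.157 (adjusted p = 0.00429), and Pcgf5, of the Polycomb complex that ubiquitinates histone H2A, read 9.27, 9.23 and 9.06 against 8.36, 8.24 and 8.30 and fell by 0.88 ± 0.148 (adjusted p = 0.00215).

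Interferon response genes had 7 rises and 2 falls among 35 tested (median 0.0122), with 2 rises without control replicate 1 or Itgb3-17 replicate 1 and 3 without replicate 2, and 1 fall without control replicate 1 or 3 or Itgb3-17 replicate 1 or 2. Irgm1, a GTPase of defence against intracellular microbes, read 8.20, 8.86 and 8.46 against 9.66, 9.69 and 9.46 and rose by 1.09 ± 0.193 (adjusted p = 0.00264), while Ifitm2, which blocks virus entry, read 9.82, 9.59 and 9.34 against 8.51, 8.46 and 8.94 and fell by 0.95 ± 0.177. Of 29 NF-kB, chemokine and immediate early genes 1 rose and 2 fell, with 2 rises without control replicate 3, 0 without Itgb3-17 replicate 1 or 2, 1 fall without control replicate 2 or Itgb3-17 replicate 1, and 0 without replicate 2. Of 32 cytosolic chaperones 3 rose and 4 fell, among them Hspa2, a member of the Hsp70 family, which read 9.07, 9.10 and 9.10 against 7.83, 7.86 and 8.05 and fell by 1.18 ± 0.146 (adjusted p = 0.000557). Another tested Hspa2 probe, above background on all 6 arrays, differed by -0.22 (adjusted p = 0.503). Chaperone rises were 1 without control replicate 1 or 2 or each Itgb3-17 array in turn. Of 69 splicing genes 4 rose and 8 fell (median -0.0846, and 0.0252 above all genes with scaling over all probes), with 2 rises without control replicate 1 or Itgb3-17 replicate 1 or 3 and 5 falls without Itgb3-17 replicate 1. Sart3, which recycles the U6 small nuclear RNA, rose by 0.91 and Snrpg, of the Sm ring of the spliceosome, fell by 0.81. Among the markers of other cell types, Foxp3, the factor of regulatory T cells, read 6.66, 6.20 and 6.79 against 7.61, 7.68 and 7.54 and rose by 1.06 ± 0.171, with the T cell receptor genes Cd3d and Cd3g not tested, and Prg2, an eosinophil granule protein, read 7.46, 7.35 and 7.20 against 6.41, 5.93 and 6.25 and fell by 1.14 ± 0.166. Another tested Foxp3 probe differed by -0.03 (adjusted p = 0.943).

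The other hairpin against Itgb3 was compared with Itgb3-17 directly. The difference itself takes no control value, but the control arrays enter the shared normalization and the estimate of spread behind its p-value. Itgb3-20 differed from Itgb3-17 in 66 of 12099 probes (0.545%), 31 higher and 35 lower, of which 32 were also called between Itgb3-17 and Luc. Both comparisons use the same Itgb3-17 arrays, so the 32 shared calls are not independent. Most described genes were chosen by their Itgb3-17 values, which favours differences towards the controls. With only 2 Itgb3-20 arrays this test had fewer arrays than the comparison with the controls, and an uncalled difference does not show that the hairpins act alike. Both knockdown groups share the 3 controls, so their differences from the controls are given side by side only. They were close for Hipk2 (-1.52 for both), Serp1 (-1.49 for Itgb3-17 and -1.50 for Itgb3-20), Cyp51 (-1.38 and -1.20), Preb (1.34 and 1.16), Ltf (1.17 and 1.20) and Ets1 (-1.22 and -1.25), and none of these 6 passed the test between the hairpins. For Hipk2 the difference between hairpins was -0.00 ± 0.179. Rac1 differed by -1.03 with Itgb3-17 and -0.54 with Itgb3-20.

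Among the described genes that differed between the hairpins, Psmc5 read 6.87 and 6.92 on the 2 Itgb3-20 arrays, between the controls and Itgb3-17, and was lower by 0.853 ± 0.171 with Itgb3-20 than with Itgb3-17 (adjusted p = 0.0366). Psmb6 read 7.64 and 7.91, within the control values (-0.944 ± 0.185, adjusted p = 0.0347), and Psmc2 differed likewise (-0.881, adjusted p = 0.0327). Bbc3 read 4.60 and 5.31 and Cdkn1a 7.21 and 6.84, both around the control values, and differed from Itgb3-17 by -1.25 ± 0.222 and -0.931 ± 0.178 (adjusted p = 0.0249 and 0.0337). In the other direction, Lyz1 was higher still with Itgb3-20, at 10.05 and 9.93 (0.945 ± 0.179, adjusted p = 0.0327), and Hoxa5 lower still, at 5.79 and 6.48 (-1.41 ± 0.203, adjusted p = 0.00846). None of these 7 calls held with scaling over all probes (adjusted p = 0.0923 to 0.325) or without Itgb3-17 replicate 2 (0.0724 to 0.15). Without Itgb3-17 replicate 1 or 3, of the 7 only Hoxa5 was called, at 0.0317 and 0.0456. Psmc5 was also lost without control replicate 2 or 3 (0.0556 and 0.0539).

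Where a gene had several tested probes, they often disagreed, and the further probes are not given above for every gene. Among 2123 such genes 3684 pairs of probes could be compared, and 59.9% of the pairs had differences of the same sign. The correlation of their differences was 0.269 across pairs, which share the arrays and, within a gene, a probe, and 0.324 over the 1529 pairs above background on all 6 arrays. Both probes were called in 164 pairs, in opposite directions in 22 of them (13.4%, from 18 genes). Aup1, a protein of lipid droplets that recruits a ubiquitin-conjugating enzyme, is an example: 1 probe read 9.19, 9.24 and 9.24 in the controls and 10.19, 10.18 and 10.10 with Itgb3-17 and rose by 0.93, and another read 7.19, 7.08 and 6.88 against 5.63, 6.10 and 5.60 and fell by 1.27. Rpl23 rose by 0.99 on its brightest probe and fell by 1.13 on another. The same was seen, with smaller differences, in Ift20, Lrrc59, Tspo, Rpl31, Scly, Rfc2, Calm2 and Sra1. Of the 171 called genes chosen for description, 94 had no other tested probe, 24 had a further probe called the same way, 32 had uncalled probes of the same sign, 20 had at least 1 uncalled probe of the opposite sign and 1 (Rpl23) a call in the opposite direction.

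**Figure D5:**
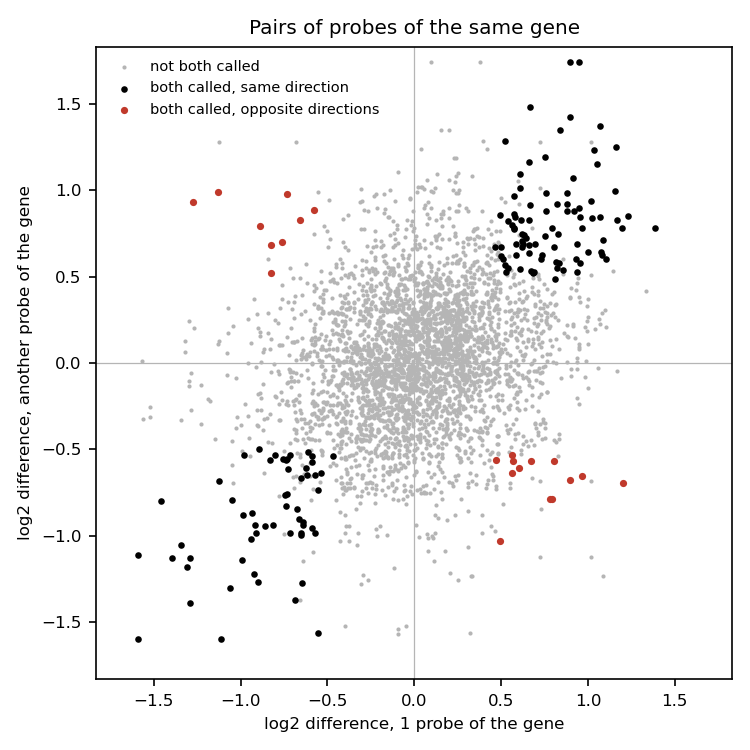
Log2 differences between Itgb3-17 and Luc control for pairs of tested probes of the same gene (horizontal and vertical axes, 1 point per pair). Black points are pairs called in the same direction and red points the 22 pairs called in opposite directions, in the upper left and lower right quadrants.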

How the data were processed

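Total RNA, isolated with Trizol and labelled with biotin, was measured on Illumina bead arrays, per the labels' protocols. Groups follow the sample titles. The deposited signal is a bead intensity on a linear scale, not normalized, per the file headers. The authors deposited a detection p-value beside each signal, and how it was computed is not given in the sources used here. The authors also deposited a table of processed log2 values, whose method is likewise not given, and it served as an alternative. The authors' image analysis and genome build are not given in the sources used here.

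The intensity was background-corrected with normexp (offset 16, with the background distribution estimated from signals and detection p-values), quantile-normalized over the 8 arrays and taken to log2. Blank rows (20254) were left out. Probes were named from the platform annotation: 34885 have 1 symbol, 18 several and 10378 none, and 34807 matched a RefSeq gene identifier with 0 symbols changed. Probes with detection p under 0.05 on at least 2 of the 6 arrays were tested with limma 3.58.1 in R 4.3.3 (lmFit and eBayes, 3 groups, two-sided), with Benjamini-Hochberg adjustment over all tested probes and a threshold of 0.05. A gene takes its tested probe of highest mean. The number of arrays limits the precision (median SE 0.172). Only the fit was checked on simulated data, drawn as independent noise around already normalized values. Background correction, scaling and the probe filter were not checked in that way.

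Named genes were the gate genes, Itgb3, Syk, the 15 largest non-overlapping rises and falls, up to 5 called genes of lowest p in each list, and up to 10 genes with opposite probes. The members and lists were chosen with earlier results of these data known, and which named genes to describe at length was decided after their values were seen. A fall is relative to the array after scaling. For a gene not above background in 1 group, the fold is a lower bound against the lowest signal above background on each array. Equal replicate numbers did not pair the arrays: deviations of same-numbered arrays correlated at 0.0307, -0.0262 and -0.00678. No 2 arrays held identical values (0 pairs). The alternatives were other scalings, no background correction, the authors' values, other filters, other moderation, array weights, a replicate block and each array left out.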

Additional observations from a re-analysis of the deposited data

Results flagged for a closer look

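In 10 of the 174 tested genes chosen for description, the hairpins Itgb3-17 and Itgb3-20 differed by a test of the difference itself (limma, adjusted p under 0.05). Over all tested probes the share was 0.545%. Most of the 174 were chosen by their Itgb3-17 values, and the same Itgb3-17 arrays enter this test. That choice favours differences towards the controls, so the count of 10 is a description. Levels were lower with Itgb3-20 than with Itgb3-17 for Hoxa5 (-1.41), Bbc3 (-1.25), Gaa (-1.25), Psmb6 (-0.944), Cdkn1a (-0.931), Psmc2 (-0.881) and Psmc5 (-0.853). They were higher for Prg2 (1.51), Fcgr3 (1.22) and Lyz1 (0.945). Gaa, the lysosomal glucosidase, read 7.18, 7.39 and 7.22 with Itgb3-17 and 6.40, 6.67 and 6.20 in the controls (adjusted p = 0.0205 between the hairpins). Its rise over the controls was lost without Itgb3-17 replicate 2 (adjusted p = 0.0583) and with no filter on dim probes. Fcgr3 read 7.33 and 7.60 on the Itgb3-20 arrays, above all 6 others, and Prg2 was lower than the controls with Itgb3-17 but not with Itgb3-20. Without Itgb3-17 replicate 2 none of the 10 differences was called, with adjusted p from 0.0517 to 0.15.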

How the results depend on the processing

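Rises numbered 1714 and falls 38 with median scaling over all probes, 593 and 447 with no filter on dim probes, and 429 to 863 and 337 to 745 with 1 array left out. All other settings gave counts within 1.5 times those reported, and 0 calls reversed in any setting. The Itgb3 probe differed by -0.0475 to 0.0404 with 1 array left out and by -0.325 with scaling over the tested probes, a setting added after the data were seen; it was at background throughout. The 10 differences between the hairpins became 0 with scaling over all probes or no filter, 21 with no background correction, 21 with the authors' values, 19 with trended, robust moderation, and 0 to 10 with 1 array left out (3, 0 and 2 without Itgb3-17 replicates 1, 2 and 3). With the replicate number as a block the 6 arrays alone gave 1206 rises and 1003 falls, against 1169 and 955 without the block. All 171 named calls were kept. Whether equal numbers stand for paired arrays is not known. Of the 171 named genes 65 were called in every 1 of the 16 alternatives that tested them and 121 whichever array was left out. Probes near background limit the rest: Itgb3, Syk, Cd34 and Ptprc could not be measured.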
